A study of Mus musculus with 6 samples.

Results

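The protocadherins are the largest family within the cadherin superfamily of calcium-dependent adhesion molecules, and their messenger RNA was followed in the neocortex of mouse embryos with a deleted Bcl11a gene, which encodes a zinc finger repressor, also called Ctip1, that shapes cortical projection neurons. Members were all genes whose symbol in the array annotation begins with Pcdh and that have a probe set naming no other gene, and the brighter probe set was taken where a gene had several. This gave 34 of the 19938 genes tested, of which 22 were clustered and 12 nonclustered. All 22 clustered members were beta genes, Pcdhb1 to Pcdhb22. The 14 alpha genes share 1 probe set, which lists 14 symbols, and none of the 22 gamma genes of the RefSeq table had a single-symbol probe set in the annotation used here. All 12 nonclustered genes of that table were measured.

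The embryos were Bcl11aΔflox/Δflox mutants, in which both copies of a floxed Bcl11a allele are in the deleted form, and Bcl11a+/+ controls. The neocortex was dissected at embryonic day 14.5, and each of the 3 mutant and 3 control embryos gave RNA for 1 Affymetrix Mouse Gene 1.0 ST array. The sources used here name neither the Cre line nor the cells and exon in which the deletion occurred. By Xist and Y-linked genes, mutant replicate 2 and control replicates 1 and 3 were female and the other embryos male. Values are the authors' RMA values on the log2 scale, where a step of 1 is a doubling, and a probe set's level cannot be set against that of another. The 6 arrays correlated at 0.993 to 0.997. Of 10 genes listed for the neocortex, 8 were measured, and all 8, among them Emx1 and Tbr1, lay above the background level, with a summed log2 level of 91.5 to 92.2 in mutants and 91.6 to 92.1 in controls. Bcl11a itself read 11.41, 11.49 and 11.34 in mutants, against 12.20, 12.30 and 12.26 in controls, a difference of -0.84 ± 0.06 (SE, limma adjusted p = 0.00201). No source used here maps its probes onto the deletion, so the signal left in mutants cannot be assigned.

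Clustered protocadherins lie side by side in tandem arrays of variable exons, each with its own promoter. Individual neurons switch on different small sets of them, with the help of the insulator protein CTCF and cohesin, and matching sets on touching membranes of the same cell drive self-avoidance of its branches. Beta genes are single-exon genes, whereas alpha and gamma variable exons are spliced to shared constant exons. Nonclustered protocadherins are scattered through the genome. Most belong to the delta class, whose cytoplasmic tails reach the actin cytoskeleton and other cadherins, and they are known in the brain for cell sorting, axon growth and regional expression patterns.

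Across the family, no member passed the limma test. An adjusted p under 0.05 over all 19938 genes counted as a change, and 0.286% of genes passed. The lowest adjusted p was 0.278 for Pcdh10 among nonclustered members and 0.821 for Pcdhb1 among clustered members. At an unadjusted p under 0.05, the count was 4 of 34 members, against 6.05% of all genes, and these were Pcdh1, Pcdh10, Pcdh18 and Pcdhb1. The same 4 members had groups that did not overlap, which is 11.8% of the family, against 10.5% of all genes. The family as a whole was thus close to the background in this count. The 95% intervals of the differences lay between -0.51 and 0.51 for all 34 members. Each interval thus stayed within a 1.5-fold change in either direction, as it did for 97.9% of all genes. For the 6 beta genes below the background level, where RMA compresses differences, the interval does not bound the change in RNA.

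**Figure D1:**
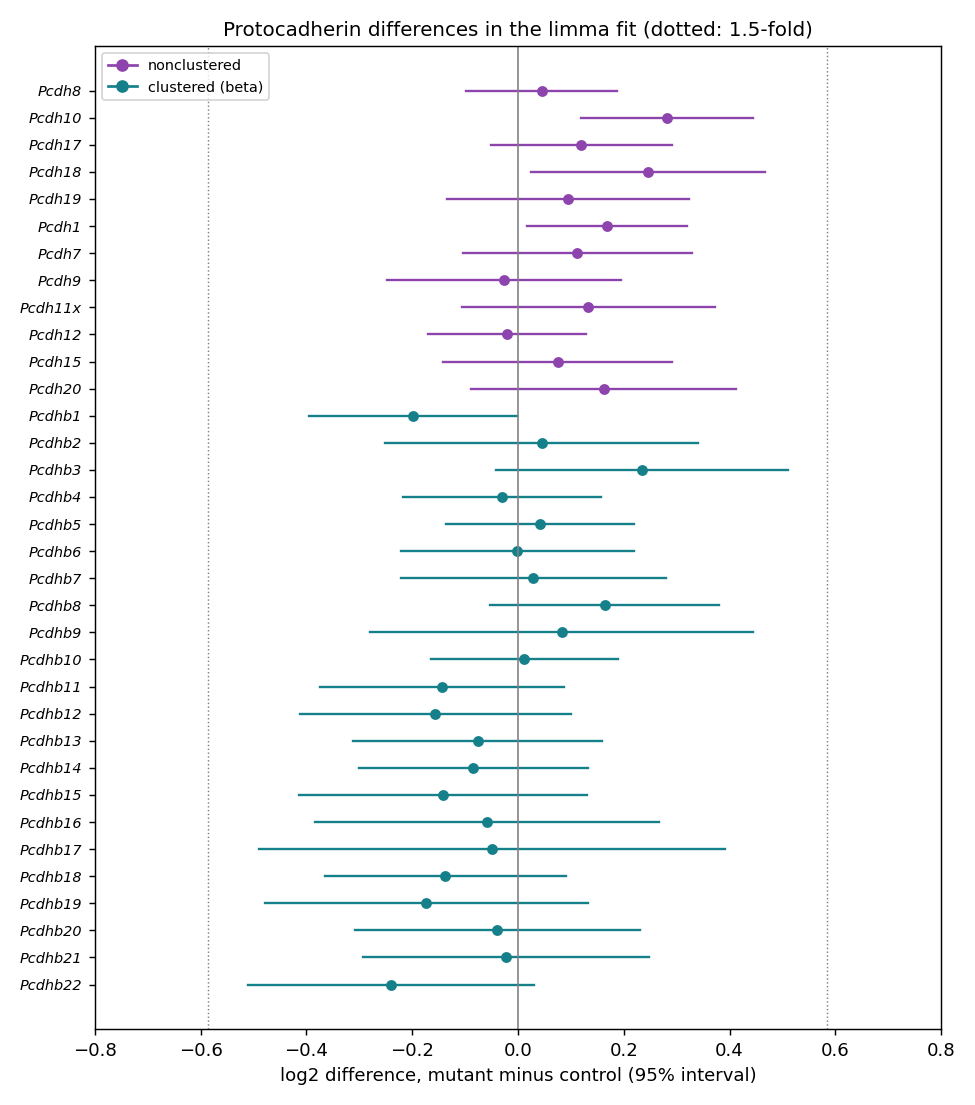
Log2 difference of mutant minus control for each of the 34 protocadherins, with its 95% interval from the limma fit; nonclustered genes are above and beta genes below, in their order along the cluster, and dotted lines mark a 1.5-fold change. Pcdh10 is farthest to the right at 0.28 and Pcdhb22 farthest to the left at -0.24, and no interval reaches a dotted line.

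Nonclustered protocadherins leaned towards higher values in the mutants. Of 12 members, 10 had a positive difference, as did 60.3% of all genes, and the median difference was 0.12, against 0.02 over all genes tested. The differences ran from -0.03 to 0.28. For 3 of the 12, Pcdh1, Pcdh10 and Pcdh18, every mutant array lay above every control array, which was so for 7.69% of all genes. All 12 lay above the background level of 6.31, set at the 95th percentile of 1194 probe sets for olfactory and vomeronasal receptors, genes that the neocortex is not known for. No test of the group of genes was made, and the counts describe these 6 embryos. Some lists of genes for other cells leaned the same way, and others did not. Of 9 measured genes of erythroid cells, all 9 had positive differences and 6 rose. Their summed log2 level was 77.8 to 78.7 in mutants and 66.6 to 68.0 in controls. The sum did not rest evenly on its genes. The globin gene Hbb-bh1 had the largest difference, at 5.02. Gata1 had the smallest, at 0.01. Of the 9 genes, 4 had means below the background level, Gata1 and some of those that rose among them. The sum cannot tell more of these cells from more RNA per cell. All 10 genes listed for microglia and macrophages had positive differences, though none passed the test, with a summed level of 70.9 to 73.1 in mutants and 68.8 to 70.2 in controls. Of 10 genes listed for radial glia, 8 had negative differences. Their summed level was 109.9 to 110.5 in mutants and 110.8 to 111 in controls. Of 10 for the ganglionic eminence and striatum, 7 were positive and 1 passed the test. Their sum was 76.5 to 77.3 in mutants and 75.1 to 76.2 in controls. Of 10 genes for neurons in general, 7 were positive. Their sum was 116.8 to 117.6 in mutants and 116.5 to 117.5 in controls. The part of any of these cells in the nonclustered values was not tested.

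Pcdh10 and Pcdh18 had the largest differences of the nonclustered genes and lie on the same chromosome, with 3 tested genes between them, so the sequence around their starts is shown. Each is a window of 300 bases, 250 before and 50 after the start of the gene, from RefSeq on build GRCm38.p6. The Pcdh10 window is chr3:45378148-45378447 on the + strand and the Pcdh18 window is chr3:49757267-49757566 on the - strand. Capitals would mark TGACCA on either strand, a motif that human BCL11A is known to bind at fetal globin promoters.
Pcdh10: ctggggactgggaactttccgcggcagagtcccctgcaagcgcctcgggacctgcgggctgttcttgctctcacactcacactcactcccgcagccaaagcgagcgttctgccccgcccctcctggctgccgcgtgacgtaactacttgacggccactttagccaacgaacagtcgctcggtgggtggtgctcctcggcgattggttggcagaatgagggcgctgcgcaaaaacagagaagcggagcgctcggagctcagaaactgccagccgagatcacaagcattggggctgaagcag
Pcdh18: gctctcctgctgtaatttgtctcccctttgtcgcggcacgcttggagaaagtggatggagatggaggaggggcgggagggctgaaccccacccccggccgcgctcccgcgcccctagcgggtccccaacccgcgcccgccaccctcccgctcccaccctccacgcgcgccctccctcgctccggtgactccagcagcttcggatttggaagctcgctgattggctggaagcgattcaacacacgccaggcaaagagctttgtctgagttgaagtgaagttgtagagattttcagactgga
Neither window holds the motif, and both are printed in lower case throughout. Windows were at hand for 9 of the 12 nonclustered genes, and none of the 9 held TGACCA on either strand, against 13.6% of 32851 windows of the same length over all genes. The letters G and C made up 62.3% of the Pcdh10 window and 63% of the Pcdh18 window, with a median of 52.7% over all windows. The absence of these letters from a window of this size says nothing of whether Bcl11a binds elsewhere at the gene. The 3 tested genes between the pair, Pabpc4l, 1700018B24Rik and Gm20557, were all below the background level and differed by 0.00, -0.01 and 0.03.

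Of the delta-2 genes, 5 were measured and all 5 had a positive difference. Pcdh10, an adhesion molecule that binds the WAVE actin regulatory complex and is needed for axon growth through the ventral forebrain of the mouse, read 10.14, 10.12 and 10.13 in mutants, against 9.98, 9.76 and 9.81 in controls. The mutants were nearly level with each other and all above the controls, whose highest array was replicate 1. The difference was 0.28 ± 0.07 (SE), or 1.22-fold, with an unadjusted p of 0.00372 and a limma adjusted p of 0.278. It ranged from 0.24 without control replicate 2 to 0.35 without control replicate 1. With arrays weighted by how closely they followed their group in these data, Pcdh10 passed at a limma adjusted p of 0.0343. That fit called 217 genes in all. Control replicate 2, the lowest control for Pcdh10, had the largest weight in it, at 3.02. Without that array the limma adjusted p, with no weights, was 0.784.

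Pcdh18, which in the mouse binds Dab1, the adaptor of reelin signalling, read 11.02, 10.75 and 10.77 in mutants, against 10.73, 10.45 and 10.62 in controls. The groups did not overlap, but the lowest mutant array stood only just above the highest control. The difference was 0.25 ± 0.10 (SE, limma adjusted p = 0.706), and 0.16 without mutant replicate 1, the highest array. That array was also the highest for genes of pericytes and meninges, of which 9 of 10 had a positive difference. Their summed log2 level was 75.2 to 83.1 in mutants, with the top value in replicate 1, and 72.9 to 73.7 in controls. Of its defining genes, Dcn read 10.49, 8.32 and 7.27 in mutants, against 6.62, 6.58 and 6.62 in controls, and Lum was below the background level in all arrays but mutant replicate 1, where it read 6.90. The height of the sum in that array rested largely on these genes. Without both, the other 8 summed to 65.7, 63.0 and 63.2 in mutants, against 62.5, 62.5 and 61.8 in controls. Every mutant sum thus still lay above every control sum. Of the 8 genes, Col1a1 and Col1a2 did not overlap between the groups, with mutants higher by 0.38 and 0.49. Col3a1, at 0.29, and Foxc1, at 0.15, overlapped. So did each of the 4 pericyte genes Pdgfrb, Rgs5, Kcnj8 and Abcc9. The part of these cells in the Pcdh18 difference was not tested. In tissue of this kind, more cells of a type and more RNA per cell cannot be told apart.

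The other delta-2 genes overlapped between the groups. Pcdh17, which in the mouse recruits the WAVE complex to contacts between growing axons, read 8.82, 8.67 and 8.87 in mutants, against 8.76, 8.60 and 8.64 in controls, a difference of 0.12 ± 0.07 (SE). Pcdh19, an X-linked partner of N-cadherin whose human counterpart is mutated in a girls' epilepsy, read 9.67, 9.63 and 9.88 in mutants, against 9.71, 9.44 and 9.75 in controls. Its difference was 0.09, and 0.00023 when control replicate 2, the lowest array and the only male control, was left out. It was 0.12 with sex as a covariate. Pcdh8, also known as arcadlin, takes N-cadherin off the surface of active synapses. It read 8.28, 8.27 and 8.20 in mutants, against 8.19, 8.28 and 8.15 in controls, and its difference of 0.04 had a 95% interval of -0.10 to 0.19.

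**Figure D2:**
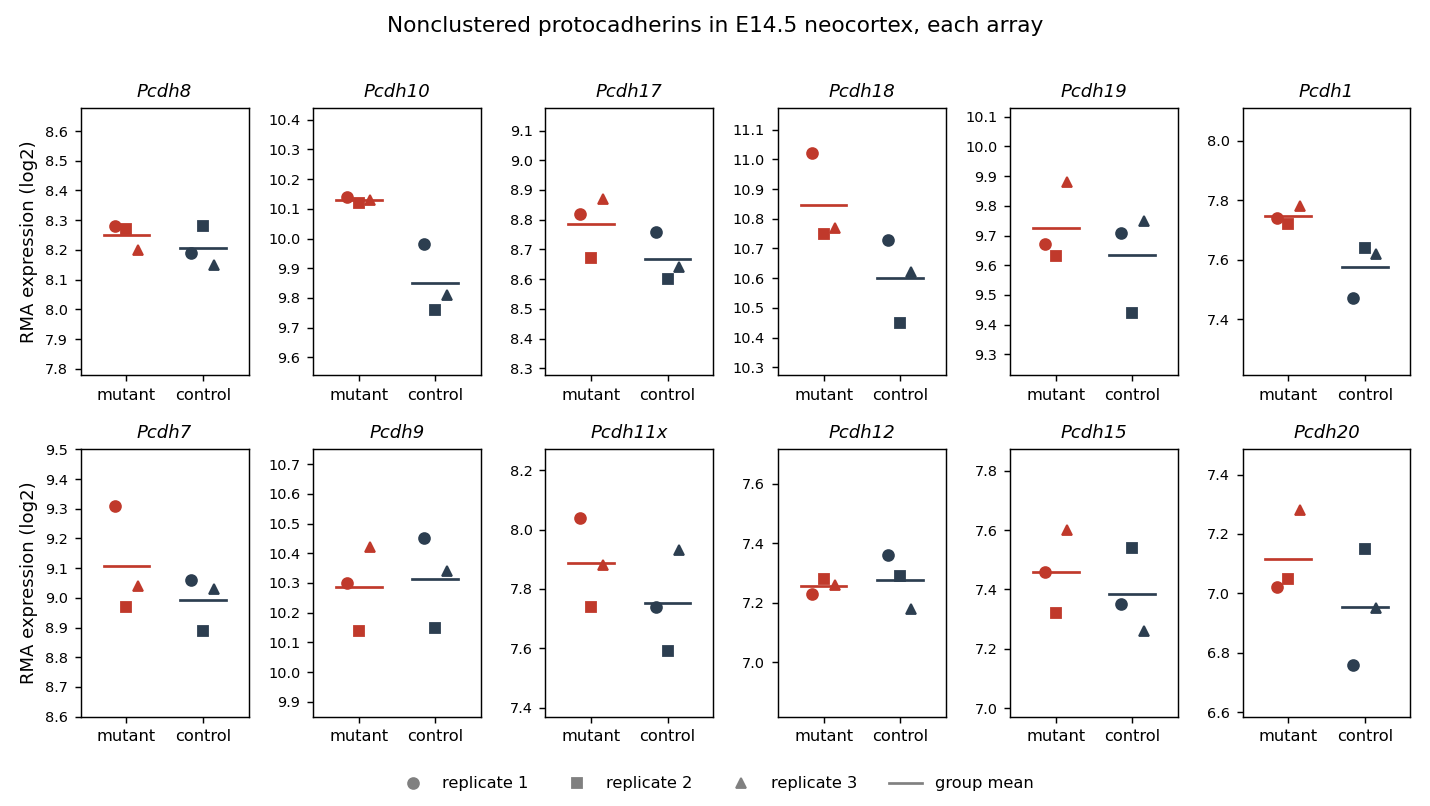
RMA expression (log2) of the 12 nonclustered protocadherins, with mutants left and controls right in each panel; each symbol is an array, its shape gives the replicate number, lines are group means, and all panels span the same range of log2 units. The mutant symbols all lie above the control symbols for Pcdh10, Pcdh18 and Pcdh1, and the groups overlap in the other 9 panels.

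Of the 4 delta-1 genes, 3 had positive differences. Pcdh1, an adhesion gene also studied in airway epithelium, read 7.74, 7.72 and 7.78 in mutants, against 7.47, 7.64 and 7.62 in controls. The groups did not overlap, and control replicate 1 was the lowest array. The difference was 0.17 ± 0.07 (SE, limma adjusted p = 0.703), and 0.12 without that control. Pcdh7, whose product binds protein phosphatase-1, read 9.31, 8.97 and 9.04 in mutants, against 9.06, 8.89 and 9.03 in controls. Its difference of 0.11 rested on mutant replicate 1, without which it was 0.01. Pcdh11x, an X-linked gene, read 8.04, 7.74 and 7.88 in mutants, against 7.74, 7.59 and 7.93 in controls, a difference of 0.13 and of 0.14 with sex as a covariate. It was 0.053 without control replicate 2, 0.056 without mutant replicate 1 and 0.22 without control replicate 3. Pcdh9, an adhesion gene of cortical and other neurons, read 10.30, 10.14 and 10.42 in mutants, against 10.45, 10.15 and 10.34 in controls. It was the 1 delta-1 gene with a negative difference, at -0.03, while its second probe set differed by 0.03.

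The remaining nonclustered genes belong to neither class here. Pcdh20, which in the mouse helps to position layer IV neurons, read 7.02, 7.05 and 7.28 in mutants, against 6.76, 7.15 and 6.95 in controls. Its difference of 0.16 ± 0.11 (SE) lay between 0.06 without control replicate 1 and 0.26 without control replicate 2. Pcdh15, a component of the tip links of hair cells in the inner ear, read 7.46, 7.32 and 7.60 in mutants, against 7.35, 7.54 and 7.26 in controls, and its second probe set differed by 0.03, against 0.08 for the brighter one. Pcdh12, an endothelial protocadherin also called VE-cadherin-2, read 7.23, 7.28 and 7.26 in mutants, against 7.36, 7.29 and 7.18 in controls. Its difference was -0.02, with a 95% interval of -0.17 to 0.13. All 10 genes listed for endothelial cells had positive differences, none passed the test, and their summed log2 level was 83.0 to 86.8 in mutants and 81.9 to 84.3 in controls.

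Clustered protocadherins showed no call and no common direction. Of the 22 beta genes, 15 had a negative difference, against 39.7% of all genes, and the median was -0.04. The control arrays spanned more than the size of the difference for each of the 22 genes, as they did for 86.3% of all genes and for 11 of the 12 nonclustered members. The median span between the highest and the lowest control was 0.39 over the beta genes, against 0.17 over all genes tested and 0.25 over nonclustered members. Between mutants the median span was 0.21 for beta genes and 0.14 for all genes. Of the 22 genes, 6 lay below the background level, as did 29.4% of all genes, and RMA compresses differences there. They were Pcdhb1, Pcdhb9, Pcdhb10, Pcdhb12, Pcdhb13 and Pcdhb14.

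Pcdhb1, the first gene of the cluster, was the 1 beta gene whose groups did not overlap, with mutants below, as for 2.85% of all genes. It read 5.64, 5.62 and 5.55 in mutants, against 5.99, 5.72 and 5.69 in controls, all below the background level. The difference of -0.20 ± 0.09 (SE, limma adjusted p = 0.821) was -0.10 without control replicate 1. Pcdhb3 had the most positive difference, at 0.23 ± 0.12 (SE, limma adjusted p = 0.937). It read 7.27, 7.06 and 7.12 in mutants, against 6.94, 6.65 and 7.16 in controls, and control replicate 3 stood above 2 of the 3 mutants. The difference was 0.10 without control replicate 2 and 0.35 without control replicate 3. Pcdhb22, at the far end of the cluster, had the most negative difference, at -0.24 ± 0.12 (SE, limma adjusted p = 0.917). It read 6.86, 6.68 and 6.88 in mutants, against 6.93, 6.88 and 7.33 in controls, so control replicate 3 was the highest of all 6 arrays, and without it the difference was -0.10.

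Along the cluster, negative differences filled its far end. All 12 genes from Pcdhb11 to Pcdhb22 had a negative difference, from -0.24 to -0.02, with a median of -0.11. Of the 10 genes from Pcdhb1 to Pcdhb10, 7 had a positive difference and 3, Pcdhb1, Pcdhb4 and Pcdhb6, a negative one, and their median was 0.04. The boundary between these stretches was chosen after the values were seen, the order was not tested, and none of the 12 genes passed even at an unadjusted p under 0.05. The largest positive differences after Pcdhb3 were those of Pcdhb8, at 0.16, and Pcdhb9, at 0.08, while on the negative side Pcdhb22 was followed by Pcdhb1, at -0.20, and then by Pcdhb19, at -0.17, and Pcdhb12, at -0.16.

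This run of negative differences rested largely on 1 control array. Control replicate 3 was the highest of all 6 arrays for each of the 12 genes from Pcdhb11 to Pcdhb22, which was so for 14.6% of all genes. The controls stood in the order replicate 3, replicate 1, replicate 2 for each of these 12 genes, against 14.9% of all genes. Because the stretch was picked for its negative differences, which a high control makes likelier, these shares are no even comparison. Pcdhb17 read 6.73, 6.53 and 6.63 in mutants, against 6.63, 6.25 and 7.16 in controls, a span of 0.92 between controls. Pcdhb16 read 7.63, 7.41 and 7.63 in mutants, against 7.56, 7.34 and 7.95 in controls. Averaged over the 12 genes, the arrays stood at -0.03, -0.20 and -0.10 in mutants, against -0.04, -0.22 and 0.26 in controls, each relative to the control mean of a gene. Without control replicate 3, 6 of the 12 genes had a negative difference and the median was 0.0012. Without control replicate 2, the lowest control, all 12 stayed negative with a median of -0.22. Without mutant replicate 2, the lowest mutant on average, 8 of 12 were negative, and with sex as a covariate 10 of 12 were. With arrays weighted by how closely they followed their group in these data, 6 of 12 were negative. There control replicate 3 had the lowest weight, at 0.45, and control replicate 2 the highest, at 3.02. Because the weights come from the same values, that fit is no separate check on leaving out control replicate 3.

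**Figure D3:**
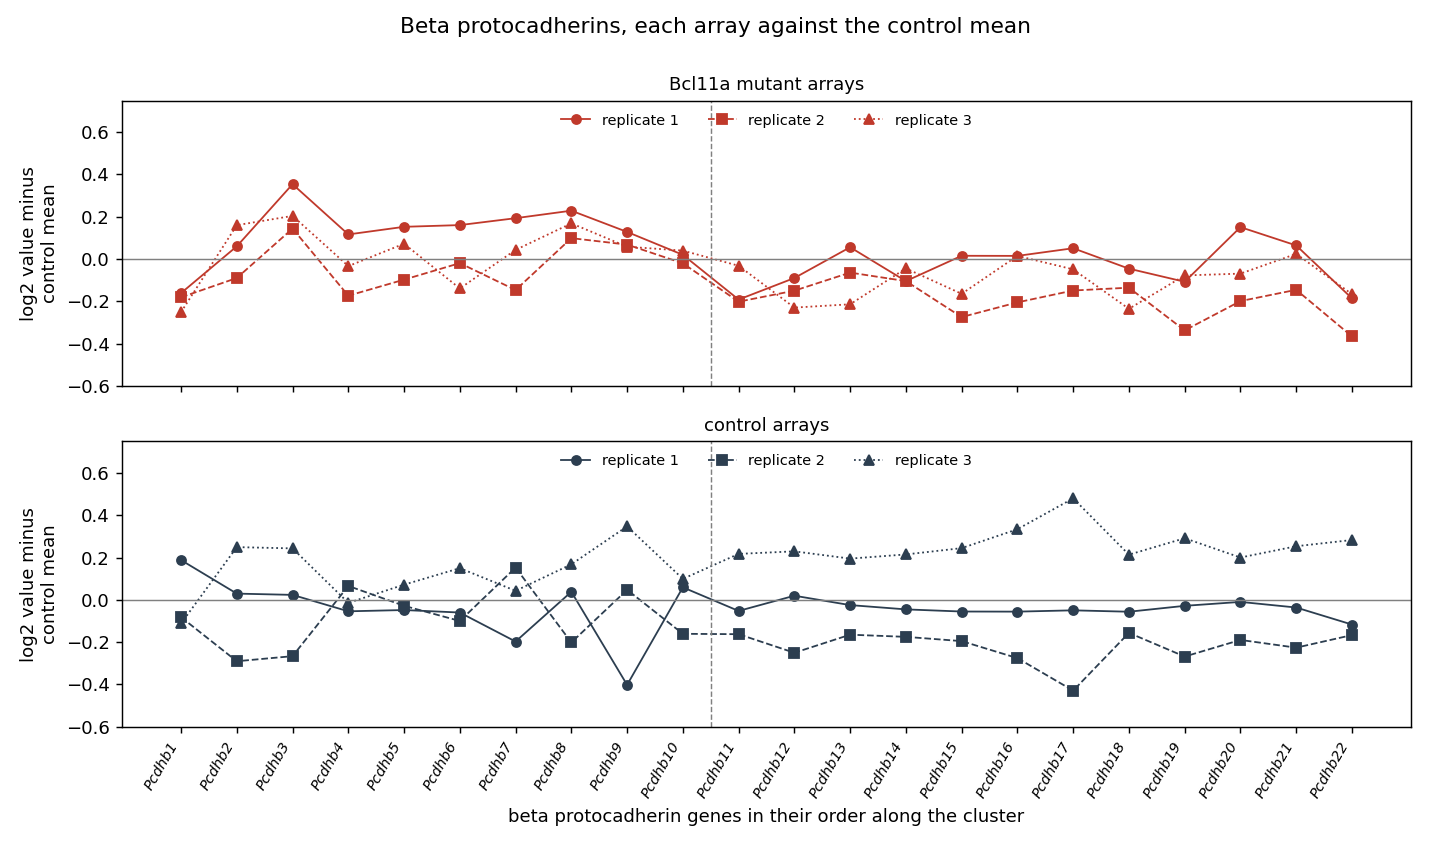
Log2 value of each beta protocadherin minus its control mean, in gene order along the cluster, for the 3 mutant arrays (above) and the 3 control arrays (below); shapes and line styles give the replicate, and the dashed line parts Pcdhb10 from Pcdhb11. To the right of that line control replicate 3 is the highest and control replicate 2 the lowest control at each of 12 genes.

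The beta genes ran in parallel across the embryos of both groups. Mutant replicate 1 was the highest mutant for 15 of the 22 genes, against 43.4% of all genes, and mutant replicate 2 the lowest for 15 of 22, against 41.8%. Among controls, replicate 3 was the highest for 19 of 22, against 34.8% of all genes, and replicate 2 the lowest for 17 of 22, against 28.6%. The beta genes are close in sequence, and whether a probe set here also reads its neighbours was not tested. The first 10 genes followed the pattern less evenly. Pcdhb7 read 7.83, 7.49 and 7.68 in mutants, against 7.44, 7.79 and 7.68 in controls, and Pcdhb4 read 8.21, 7.92 and 8.06 in mutants, against 8.04, 8.16 and 8.08 in controls. For these genes control replicate 2 was the highest control.

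The nonclustered genes shared part of this pattern. Mutant replicate 2 was the lowest mutant for 9 of 12, against 41.8% of all genes. Control replicate 2 was the lowest control for 7 of 12, against 28.6%. The rest was not shared. Mutant replicate 1 was the highest mutant for 5 of 12, against 43.4%, and control replicate 3 the highest control for 2 of 12, against 34.8%. The probe set shared by the 14 alpha genes read 7.35, 7.34 and 7.44 in mutants, against 7.32, 7.39 and 7.42 in controls. Its means were 7.38 ± 0.06 in mutants and 7.38 ± 0.05 in controls (SD, n = 3 arrays each). Control replicate 3 was the highest control here too, but replicate 1 was the lowest, and mutant replicate 3 stood just above control replicate 3. Because it may sum many alpha transcripts, a shift from an alpha gene to another would not be seen in it. Of the cell type lists, the 10 genes listed for Cajal-Retzius cells, early-born neurons below the pia that release reelin, had their highest summed level in control replicate 3. Of these, 7 had negative differences, and their summed log2 level was 82.8, 81.7 and 81.7 in mutants, against 81.7, 83.8 and 85.5 in controls. The order of these controls was not that of the beta genes, since control replicate 1 was the lowest. The part of Cajal-Retzius cells in the beta values was not tested.

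**Figure D4:**
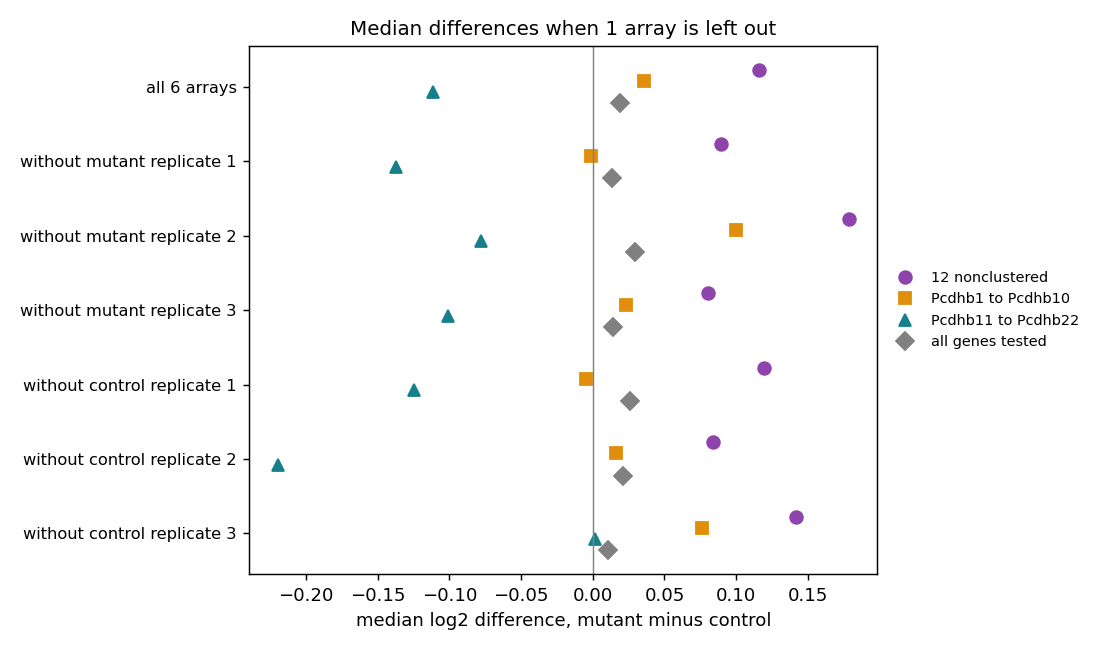
Median log2 difference of mutant minus control for the 12 nonclustered genes, Pcdhb1 to Pcdhb10, Pcdhb11 to Pcdhb22 and all genes tested, with all 6 arrays (top row) and with each array left out in turn. The median of Pcdhb11 to Pcdhb22 is -0.11 with all arrays and 0.0012 without control replicate 3, while that of the nonclustered genes stays between 0.08 and 0.18.

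The nonclustered median stayed above that of all genes whichever array was left out. It lay between 0.081, without mutant replicate 3, and 0.18, without mutant replicate 2, and 10 to 12 of the 12 genes were positive. In per-array terms the 12 genes stood at 0.15, 0.04 and 0.16 in mutants, against 0.03, -0.03 and 0.01 in controls, relative to each gene's control mean. Mutant replicate 2 stood close to the controls, and mutant replicates 1 and 3 stood apart from them. The genes Pcdh1, Pcdh7, Pcdh8, Pcdh10, Pcdh11x, Pcdh17, Pcdh18, Pcdh19 and Pcdh20 kept a positive difference in each of 13 alternative fits. Pcdh9, Pcdh12 and Pcdh15 changed sign in at least 1. Not every fit could turn a sign. The replicate number as a block and a filter on dim probe sets left the differences as they were. Another probe set could alter only Pcdh9 and Pcdh15. The lowest differences were 0.00031 for Pcdh8 and 0.00023 for Pcdh19.

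Genes that act on or with protocadherins, and a list of other cadherins with their partners, made up 4 lists. None of their 57 measured members passed the test. Of 17 genes for CTCF, cohesin and chromatin regulators of the clustered genes, 11 had positive differences, the median was 0.01, and none had an unadjusted p under 0.05. Among them Pds5a, a cohesin regulator, differed by -0.08, and Kdm1a, a histone demethylase, by 0.07. Of 22 signalling partners, 11 had positive differences and the median was 0.0013. Cyfip2, a subunit of the WAVE complex that Pcdh10 and Pcdh17 bind, read 11.89, 11.84 and 11.82 in mutants, against 11.55, 11.49 and 11.50 in controls. The groups stood well apart, with a difference of 0.33 ± 0.06 (SE, limma adjusted p = 0.0720), and it was the 1 partner with an unadjusted p under 0.05. Nlgn1, a synaptic adhesion gene, differed by 0.15. Dab1, the reelin adaptor, lay lower in every mutant array, at 11.80, 11.85 and 11.92 in mutants, against 11.94, 11.97 and 11.94 in controls. The difference was -0.09 ± 0.06 (SE, limma unadjusted p = 0.151). Cyfip2 and Dab1 were the 2 of 22 partners whose groups did not overlap, against 10.5% of all genes.

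Of 7 proteases that shed or cleave protocadherins, 3 had positive differences, with a median of -0.01. Mmp14, a membrane metalloprotease, differed by -0.16, Aph1a, a subunit of gamma-secretase, by 0.09, and Adam10, the main sheddase of these molecules, by 0.04. Of 11 genes for Fat, Dachsous and Celsr cadherins and their partners, 4 had positive differences, with a median of -0.03. Fat3, a giant cadherin of neurons, read 11.13, 11.21 and 11.38 in mutants, against 11.60, 11.41 and 11.46 in controls. The mutants lay below all controls, with a difference of -0.25 ± 0.08 (SE, limma adjusted p = 0.534). Fat1, a cadherin of radial glia, differed by -0.27 ± 0.13 (SE), with groups that overlapped.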

How the data were processed

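RNA was measured in the neocortex of 3 mutant and 3 control embryos with 1 array each. The authors used Affymetrix Expression Console with RMA, per the submitters' processing notes. RMA corrects background, quantile-normalizes and summarises probe sets. The deposited values were taken as log2, as RMA gives them, and lay between 3.41 and 13.8. No source used here gives versions or a genome build. Of 35556 probe sets, 21789 had 1 symbol in GEO's platform annotation, 1621 had several and 12146 had no gene listed. Symbols were matched by Entrez number to a RefSeq table of GRCm38.p6 for 21698 probe sets, and 91 kept the annotation's symbol. For 999 genes with several probe sets the brightest stood for the gene, giving 19938 genes.

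The comparison of genotypes was fitted in limma 3.58.1 (R 4.3.3) with lmFit and eBayes and no covariate, with Benjamini-Hochberg adjustment over all genes tested and a threshold of 0.05. Differences are mutant minus control and p-values two-sided. The step was tested on simulated data with planted differences larger than any seen among the protocadherins. That check therefore cannot say whether differences of their size would be found. Members and lists were chosen with earlier results of these data known. The text names Bcl11a, any protocadherin, of each pathway list the genes past the threshold and up to 2 more with the smallest p, and of each cell type list up to 2 genes. Dab1, Adam10, Hbb-bh1, Gata1, Foxc1, the pericyte and collagen genes and the genes between Pcdh10 and Pcdh18 were named after their values were seen. Alternatives left out each array, used the replicate number as a block, another normalization, array weights, sex, a filter on dim probe sets or another probe set. The number of arrays limits the precision.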

Additional observations from a re-analysis of the deposited data

How the results depend on the processing

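With a replicate block, 34 genes passed in place of 57, and no protocadherin passed. Deviations of mutant and control arrays of the same number correlated at 0.03, -0.14 and 0.08, so the numbers were not taken to pair the embryos. The number of genes that passed ran between 20 and 50 in the fits that left out an array, and was 217 with array weights and 24 with sex as a covariate. It was 54 of 21789 with all single-symbol probe sets counted singly. With array weights 1 nonclustered protocadherin passed, Pcdh10 (limma adjusted p = 0.0343), and 6 of the genes Pcdhb11 to Pcdhb22 had a negative difference. Leaving out 1 array gave 0 nonclustered calls each time, a nonclustered median of 0.081 to 0.18, and 6 to 12 negative differences among Pcdhb11 to Pcdhb22. The clustered median lay between -0.15 and 0.06 in those fits. Over 436 values of single members in 13 alternative fits, 45 had another sign than with the reported setting, 10 of them with array weights, and 1 passed. The replicate block and the filter on dim probe sets could turn no sign, and another probe set only those of Pcdh9 and Pcdh15. The counts of signs by stretch of the cluster, and the medians of those stretches and of all genes, were recomputed after the data were seen. The causes of these shifts were not tested.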
